A study of Homo sapiens with 6 samples.

Results

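The collagen genes of the skin basement membrane and dermis were followed in HaCaT cells, an established line of immortalised human keratinocytes, after repeated mild heat. They were chosen by symbol from the 15379 gene symbols of a deposited count table, and all 7 had a row: COL4A1, COL4A2 and COL18A1 of the basement membrane, COL7A1 of the anchoring fibrils, COL17A1 of the hemidesmosome, and the fibrillar collagen genes COL1A1 and COL3A1. Of these, 7 of 7 also passed the filter on low counts that left 12056 genes for testing. The study compared HaCaT cells held at 37C with cells exposed to 41C, in each case for 1 h per day over 3 days, with 3 poly(A) RNA libraries per temperature and no gene or drug treatment in either group. All 6 libraries come from 1 cell line, and no label states whether replicates of a temperature were grown separately; p-values therefore speak of the spread among these libraries, part or all of which may be technical. The interval between the last exposure and RNA isolation was also not stated.

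Collagens are proteins built of 3 chains wound into a triple helix. In skin, type IV collagen forms the network of the basement membrane under the keratinocytes, and type XVIII collagen lies in the same layer and carries the endostatin fragment. Type XVII collagen is a membrane-spanning protein of the hemidesmosome, the junction that ties the basal keratinocyte to that layer, and type VII collagen forms the fibrils that anchor the layer to the dermis. Type I and type III collagens are the bulk fibres of the dermis and are made mostly by fibroblasts.

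COL4A1 lies on the minus strand of chromosome 13 (GRCh38, 110148963 to 110307233 in GENCODE release 29) and COL4A2 beside it on the plus strand (110305812 to 110513209). The other genes lie at 45405137 to 45513720 on chromosome 21 (COL18A1, plus strand), 48564073 to 48595267 on chromosome 3 (COL7A1, minus strand), 104031286 to 104085957 on chromosome 10 (COL17A1, minus strand), 50183289 to 50201632 on chromosome 17 (COL1A1, minus strand) and 188974320 to 189012746 on chromosome 2 (COL3A1, plus strand). COL4A1 and COL4A2 are transcribed away from each other, and their RefSeq starts leave 126 bases between them. This stretch is shown because it serves both genes, with 250 bases upstream of the RefSeq start of COL7A1 and of COL17A1 for contrast. Each is written 5′ to 3′, the first on the plus strand and the others on the strand of the gene (RefSeq, GRCh38.p14). Capitals mark matches, on either strand, to CCAAT, to the GC box GGGCGG, to TATAAA and to GAANNTTC, a pair of heat shock factor half-sites.
COL4A1 and COL4A2, chr13:110307158-110307283: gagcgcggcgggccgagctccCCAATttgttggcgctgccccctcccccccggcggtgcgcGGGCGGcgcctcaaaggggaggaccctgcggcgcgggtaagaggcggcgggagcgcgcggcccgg
COL7A1, chr3:48595330-48595579: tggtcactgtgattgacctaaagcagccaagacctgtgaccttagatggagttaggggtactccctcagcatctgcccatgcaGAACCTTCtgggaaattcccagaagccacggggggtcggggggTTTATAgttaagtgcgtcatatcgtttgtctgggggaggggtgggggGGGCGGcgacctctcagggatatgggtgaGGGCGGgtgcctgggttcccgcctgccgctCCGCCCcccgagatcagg
COL17A1, chr10:104085881-104086130: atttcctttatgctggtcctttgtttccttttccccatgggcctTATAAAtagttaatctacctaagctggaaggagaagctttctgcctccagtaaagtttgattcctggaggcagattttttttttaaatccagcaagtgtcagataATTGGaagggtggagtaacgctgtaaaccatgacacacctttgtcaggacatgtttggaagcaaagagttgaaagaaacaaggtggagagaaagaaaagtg

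The 126 bases between COL4A1 and COL4A2 were 80.2% G and C and held 1 CCAAT match and 1 GC box. The upstream windows differed widely in composition: 60.8% G and C for COL7A1 and 40.4% for COL17A1, with 88.4% for COL18A1 at the more upstream of its RefSeq starts, against a median of 58% over 27303 promoters of the same length. A promoter window was matched for 5 of the 7 genes, and COL18A1 was counted by its more upstream start. The COL4A1 and COL4A2 windows overlap, so the CCAAT match and the GC box between the genes count once for each of them. GGGCGG was found in 4 of these 5 windows (42.3% of all promoters), CCAAT in 3 of 5 (33% of all) and TATAAA in 2 of 5 (11.1% of all); the other COL18A1 window also held TATAAA. GAANNTTC was found in 1 of 5, that of COL7A1 at position -167 from the start (5.85% of all promoters), and TTCNNGAA and the AP-1 sequence TGANTCA in 0 of 5 (6.72% and 6.6% of all). Both strands were searched, GAANNTTC, TTCNNGAA and TGANTCA read alike on either strand, and a match is a string of letters, not a measured binding site.

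The 5 collagens of the basement membrane, anchoring fibril and hemidesmosome were higher after 41C, each by 1.2- to 1.4-fold, and the 2 fibrillar collagens did not pass the test. Of the 7 genes, 5 rose and 0 fell by edgeR's quasi-likelihood test at an adjusted p of 0.05 over all genes, where 1.09% of all tested genes were called in either direction, 0.821% were called higher and 0.265% lower. An unadjusted p under 0.05 by edgeR was reached by 6 of the 7, none of them lower, beside 13.7% of all tested genes. Limma-voom also called 0 of the 7 lower, and DESeq2 gave no adjusted p for COL1A1, COL3A1 and COL18A1. The 5 became 0 on leaving out 37C replicate 2 or 41C replicate 2, and 3 on leaving out 41C replicate 1 or 41C replicate 3. In the same order, the genes called over the whole table became 17, 5, 36 and 41, from 131. The median log2 change of the 7 was 0.27, beside 0.00 over all 12056 genes tested. In 5 of the 7 all 3 libraries at 41C lay above all 3 at 37C, as in 11.2% of all tested genes, and in 1 all 3 lay below, as in 8.84%. Some of these rises were known from earlier results of the same data when the genes were chosen, so the count is a description of a chosen set.

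**Figure D1:**
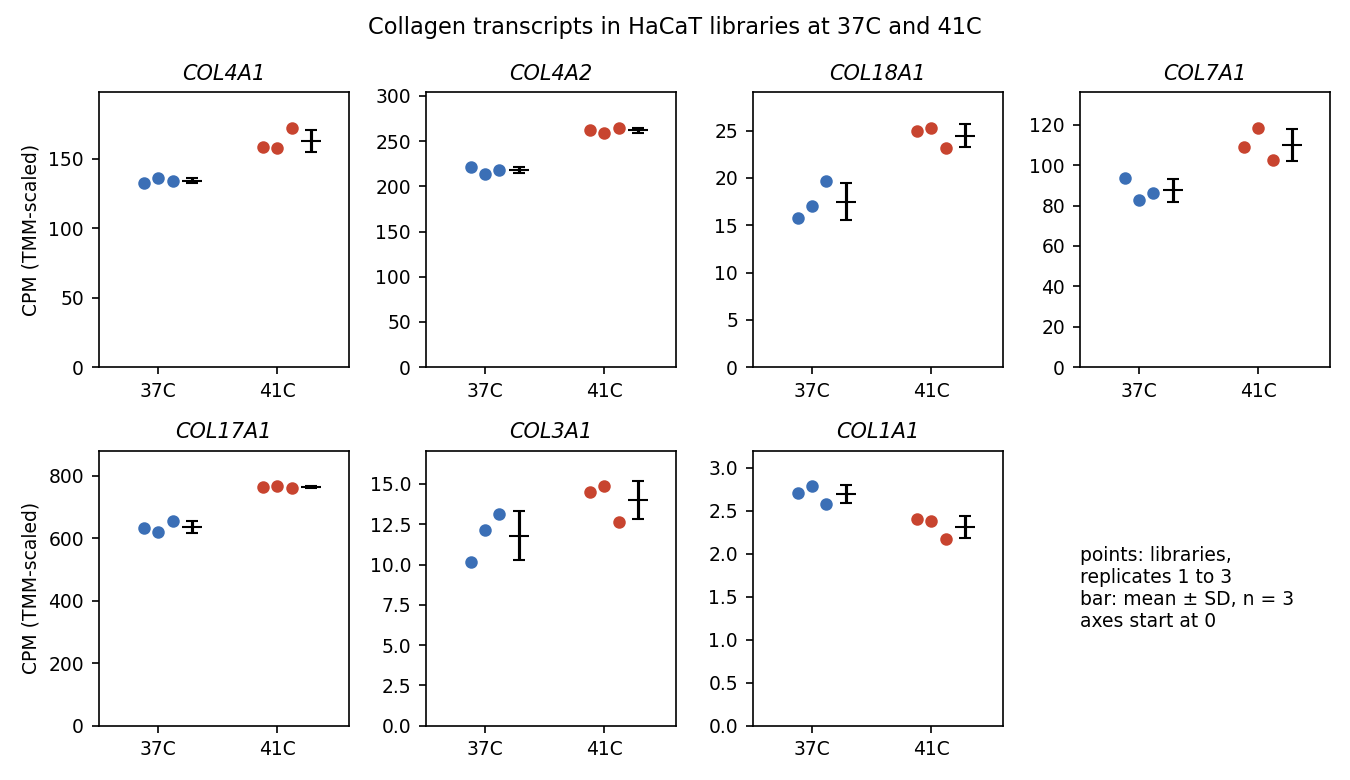
CPM (TMM-scaled counts per 1000000 counts, linear axes from 0) of the 7 collagen genes in each library at 37C (blue) and 41C (red), with mean ± SD of 3 libraries beside the points. The 3 red points lie above the 3 blue points for COL4A1, COL4A2, COL18A1, COL7A1 and COL17A1, overlap with them for COL3A1 and lie below them for COL1A1.

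COL4A1 and COL4A2 encode the chains of the type IV collagen found in basement membranes throughout the body. COL4A1 had 132.7, 136.1 and 133.8 CPM in replicates 1, 2 and 3 at 37C and 158.1, 157.9 and 172.1 CPM at 41C, where CPM is counts per 1000000 counts, scaled by the TMM factor of each library. The groups did not overlap, and 41C replicate 3 was the highest library. COL4A1 rose 1.21-fold (log2 change 0.28 ± 0.05 SE, n = 3 per group, edgeR adjusted p = 0.0105). COL4A2 had 220.8, 214.1 and 218.4 CPM at 37C and 261.8, 259.4 and 264.6 CPM at 41C. Here the libraries within each group lay close together, with an SD of 3.44 at 37C and 2.61 at 41C. COL4A2 rose 1.2-fold (log2 change 0.27 ± 0.04, edgeR adjusted p = 0.00440).

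The balance between these neighbouring genes showed no detected shift. COL4A2 had 1.66, 1.57 and 1.63 counts per count of COL4A1 at 37C and 1.66, 1.64 and 1.54 at 41C, so the groups overlapped. The mean log2 ratio went from 0.70 ± 0.04 to 0.69 ± 0.06 (SD, n = 3), a difference of -0.01 that was smaller than either SD (two-sided exact permutation test, p = 0.8; adjusted p = 0.8 over 3 ratios). With 3 libraries against 3 this test cannot give a p below 0.1. The GENCODE spans of the genes overlap at their starts, on opposite strands, with 290 bases of COL4A1 exons inside the span of COL4A2 and 132 bases of COL4A2 exons inside that of COL4A1, so reads there may not have been told apart. The level per length of COL4A1 depends on the gene model. The deposited FPKM (counts per kilobase of gene length, relative to the library total) gave COL4A1 a length of 15595 bases and COL4A2 one of 6446, while the longest GENCODE transcripts measure 6616 and 6494 bases. At 37C the deposited values were 8.66 ± 0.105 FPKM for COL4A1 and 34.0 ± 0.667 for COL4A2 (SD, n = 3), and per kilobase of the longest transcript they became 20.4 and 33.7 on the same scale.

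COL18A1 had the largest log2 change of the 7. It had 15.8, 17.0 and 19.7 CPM at 37C and 25.0, 25.3 and 23.1 CPM at 41C. The lowest 41C library, replicate 3, lay above the highest 37C library, also replicate 3. COL18A1 rose 1.4-fold (log2 change 0.48 ± 0.09, 95% confidence interval 0.29 to 0.68, edgeR adjusted p = 0.0185). That interval overlaps those of COL4A1 (0.17 to 0.38), COL4A2 (0.18 to 0.35), COL7A1 (0.20 to 0.46) and COL17A1 (0.18 to 0.35), and the differences between them were not tested. SLC19A1, which encodes the reduced folate carrier, lies on the opposite strand, and in GENCODE release 29 its exons overlap 1401 bases (16.4%) of the exons of COL18A1. Whether reads were counted by strand was not stated, so reads from the shared stretch may not have been told apart. SLC19A1 gave 19.2, 15.0 and 18.1 CPM at 37C and 18.1, 16.5 and 21.0 CPM at 41C, with overlapping groups (log2 change 0.09 ± 0.11, edgeR adjusted p = 0.787).

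COL7A1, which is mutated in dystrophic forms of the blistering disease epidermolysis bullosa, had 93.7, 82.5 and 86.2 CPM at 37C and 109.1, 118.4 and 102.4 CPM at 41C. Its libraries at 41C were spread wider than those of COL4A2, with an SD of 8.06, but stayed above all libraries at 37C. COL7A1 rose 1.26-fold (log2 change 0.33 ± 0.06, edgeR adjusted p = 0.0189). COL17A1, the hemidesmosomal collagen that is an autoantigen in bullous pemphigoid, gave the most counts of the 7, with 631.8, 620.6 and 656.5 CPM at 37C and 764.0, 766.2 and 762.0 CPM at 41C. The 41C libraries differed from each other by an SD of 2.10 CPM and the 37C libraries by 18.4. COL17A1 rose 1.2-fold (log2 change 0.26 ± 0.04, edgeR adjusted p = 0.00409). COL7A1 had 0.137 ± 0.00937 counts per count of COL17A1 at 37C and 0.144 ± 0.0101 at 41C (SD, n = 3), with overlapping groups (log2 difference 0.07, two-sided exact permutation test, p = 0.5; adjusted p = 0.75 over 3 ratios).

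The fibrillar collagens were low and neither passed. COL3A1 had 10.1, 12.1 and 13.1 CPM at 37C and 14.5, 14.8 and 12.6 CPM at 41C, from 202 to 306 counts per library, and 41C replicate 3 lay within the range at 37C. Its log2 change was 0.25 ± 0.11 (95% confidence interval 0.01 to 0.49, edgeR adjusted p = 0.347 over all genes). Its estimate is thus close to that of COL17A1, with a larger error than that gene's 0.04. COL1A1 gave 54, 55 and 51 counts in the 37C libraries against 50, 49 and 43 in the 41C libraries, or 2.71, 2.78 and 2.58 against 2.40, 2.38 and 2.17 CPM. All 3 libraries at 41C lay below those at 37C, by a log2 change of -0.22 ± 0.20 (95% confidence interval -0.63 to 0.20, edgeR adjusted p = 0.687). At this depth, a rise of COL1A1 to the size seen in COL4A1 (0.28) lies outside that interval, and a smaller rise or no change lies inside it. The interval of COL4A1 itself (0.17 to 0.38) overlaps that of COL1A1, and the genes were not tested against each other.

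COL3A1 had 3.74, 4.36 and 5.08 counts per count of COL1A1 at 37C and 6.04, 6.24 and 5.84 at 41C. These ratios did not overlap (log2 difference 0.47, two-sided exact permutation test, p = 0.1, the smallest p this design allows; adjusted p = 0.3 over 3 ratios). In bulk samples such as these, more cells making a transcript and more transcript per cell cannot be told apart.

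Per length, the 7 transcripts spanned a wide range. By the deposited FPKM at 37C the order was COL17A1 (111.2 to 117.0), COL4A2 (33.4 to 34.7), COL7A1 (8.88 to 10.2), COL4A1 (8.58 to 8.78), COL18A1 (2.64 to 3.24), COL3A1 (1.87 to 2.39) and COL1A1 (0.436 to 0.473). The order was the same at 41C, where the ranges of COL7A1 (10.8 to 12.6) and COL4A1 (10.1 to 10.9) overlapped and no others that follow each other did. With the longest GENCODE transcripts as lengths, COL4A1 (20.4 on that scale) stood above COL7A1 (9.49) at 37C. COL17A1 alone held 52.8 ± 0.582% of the summed FPKM of all 35 collagen genes at 37C and 53.7 ± 0.239% at 41C (SD, n = 3). COL1A1 and COL3A1 together held 1.21 ± 0.121% and 1.16 ± 0.0881%. These shares count COL4A1 at its deposited length of 15595 bases. With only COL4A1 taken at its longest GENCODE transcript, the total would be larger and the shares smaller. All 35 collagen genes took 0.144 to 0.148% of a library's counts at 37C and 0.169 to 0.173% at 41C.

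**Figure D2:**
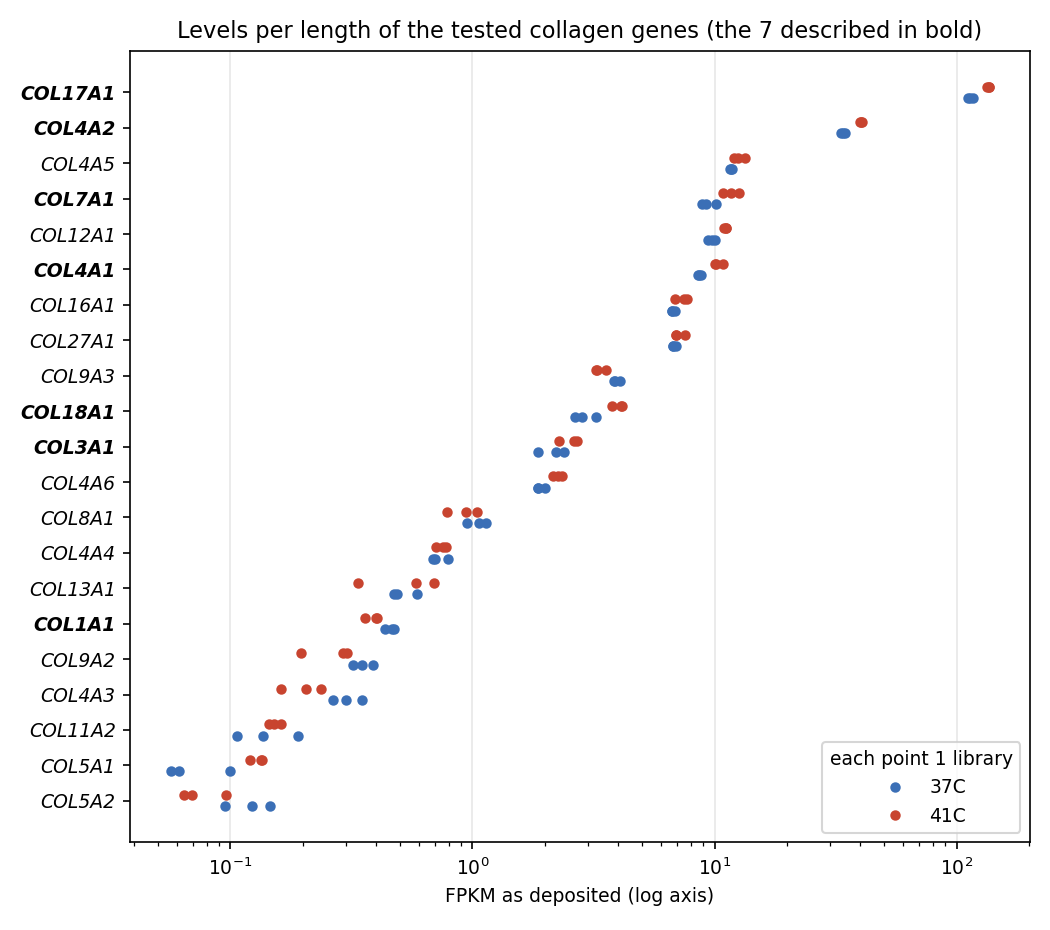
Deposited FPKM (log axis) of the 21 tested collagen genes, with 1 point per library at 37C (blue) and 41C (red), ordered by mean level, and the 7 genes described here in bold. COL17A1 stands highest at 111.2 to 117.0 FPKM at 37C, and COL1A1 lies at 0.436 to 0.473; the position of COL4A1 rests on the length of 15595 bases in the deposited values.

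The table held 28 other collagen genes, of which 14 passed the filter on low counts. Of these 14, 1 rose and 0 fell, beside 0.821% of all tested genes called higher and 0.265% lower. DESeq2 and limma-voom called 1 each. Log2 changes had a median of 0.08 and ran from -0.64 ± 0.36 for COL5A2 to 0.85 ± 0.30 for COL5A1. Both genes were at 9 to 30 counts per library and did not pass (edgeR adjusted p = 0.447 and 0.206). An unadjusted p under 0.05 by edgeR was reached by 6 of the 14, beside 13.7% of all tested genes. Of these 6, COL4A3 was lower and the others higher. COL12A1, a collagen that decorates fibrils, was the one that passed. It had 116.7, 114.7 and 110.9 CPM at 37C and 132.0, 131.7 and 131.3 CPM at 41C (log2 change 0.21 ± 0.05, edgeR adjusted p = 0.0464). That call ended when libraries were corrected for gene length (log2 change 0.17, edgeR adjusted p = 0.128). It also ended on leaving out 37C replicate 2 (edgeR adjusted p = 0.282) or 41C replicate 1, 2 or 3 (0.220, 0.265 and 0.141), while the log2 change stayed between 0.20 and 0.21 in these 4 fits. Over the whole table these fits called 17, 36, 5 and 41 genes, against 131 in the main fit. The next 2 by counts were COL4A5, at 0.13 ± 0.05 on the log2 scale (edgeR adjusted p = 0.307), and COL27A1, at 0.09 ± 0.06 (edgeR adjusted p = 0.524).

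Among the other type IV chains, none passed. COL4A5 and COL4A6 encode the partner chains of another type IV network of skin, and COL4A3 and COL4A4 form a network with COL4A5 in the kidney glomerulus. COL4A6 had 15.6, 15.6 and 16.8 CPM at 37C and 19.0, 18.2 and 20.0 CPM at 41C, without overlap (log2 change 0.26 ± 0.09, edgeR adjusted p = 0.191). COL4A3 gave 59, 51 and 45 counts in the 37C libraries against 37, 42 and 28 in the 41C libraries, a log2 change of -0.58 ± 0.23 (edgeR adjusted p = 0.269). For COL4A4 the estimate was 0.06 ± 0.11 on the log2 scale (edgeR adjusted p = 0.879). These 4 chains thus had estimates on both sides of 0, and none was tested against COL4A1 or COL4A2.

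**Figure D3:**
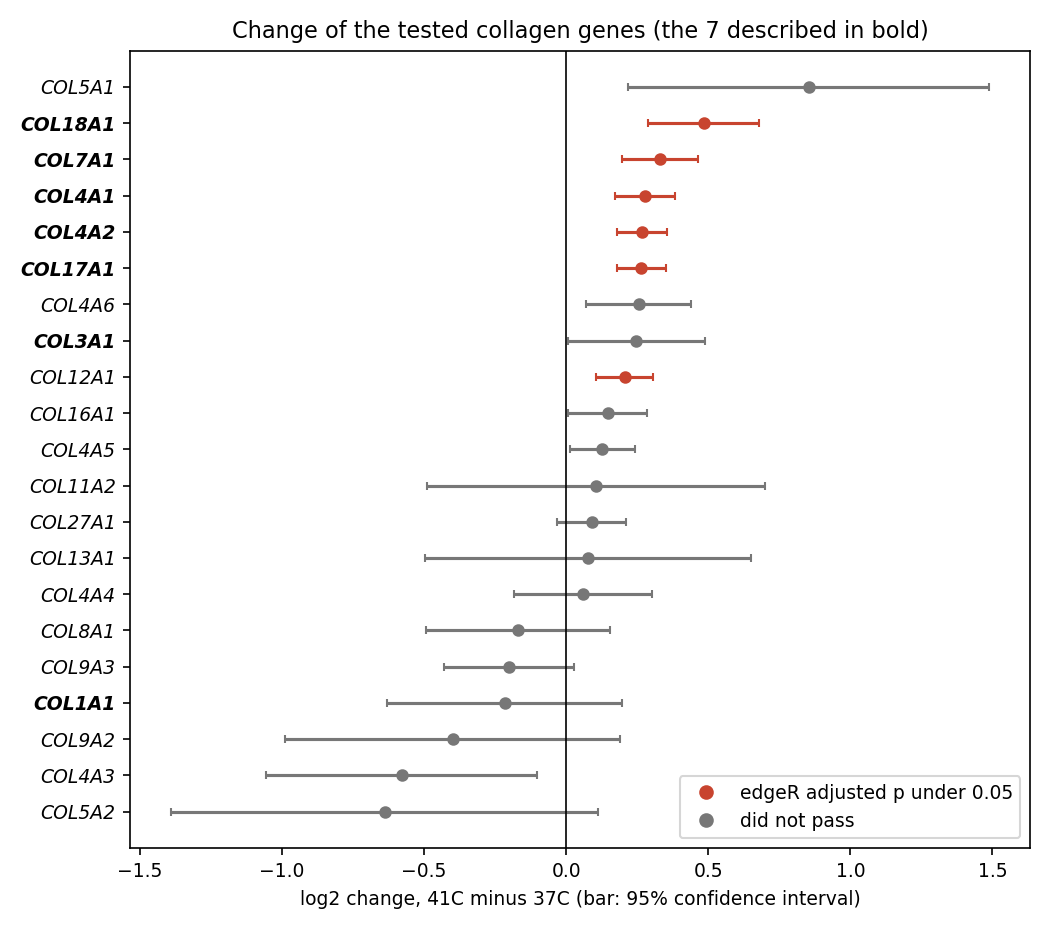
Log2 change from 37C to 41C of the 21 tested collagen genes with 95% confidence intervals, in red where edgeR's adjusted p is under 0.05, and the 7 genes described here in bold. COL4A1, COL4A2, COL7A1, COL17A1 and COL18A1 lie between 0.26 and 0.48, COL12A1 at 0.21, and the interval of COL1A1 runs from -0.63 to 0.20.

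Other genes of the basement membrane and its junction with the keratinocyte were described from a list of 20, all tested. Of the 20, 7 rose and 0 fell (median log2 change 0.15), where 0.821% of all tested genes were called higher and 0.265% lower. An unadjusted p under 0.05 by edgeR was reached by 13, beside 13.7% of all tested genes. This list, like the other lists, was chosen with earlier results of these data known, so these counts describe a chosen set. LAMA3 and LAMB3 encode chains of laminin-332, to which type VII and type XVII collagen bind, and rose by 0.37 ± 0.05 and 0.29 ± 0.05 on the log2 scale (edgeR adjusted p = 0.00170 and 0.0109). ITGB4, the integrin subunit that meets COL17A1 in the hemidesmosome, went up by 0.25 ± 0.04 on the log2 scale, between means of 526.5 ± 18.7 and 625.7 ± 17.5 CPM (edgeR adjusted p = 0.00823). PLEC, ITGA6 and FERMT1 were also among those that rose. Leaving out 37C replicate 2 reduced the 7 to 2, and leaving out 41C replicates 1, 2 and 3 in turn reduced it to 3, 0 and 4. In these fits the calls over the whole table fell from 131 to 17, 36, 5 and 41. Leaving out 37C replicates 1 and 3 in turn gave 6 and 9 of the list, where the whole table gave 223 and 805.

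Of the machinery that folds and matures collagen, 25 genes of a list of 33 were tested. Among them 1 rose and 0 fell (median log2 change 0.02), beside 0.821% of all tested genes called higher and 0.265% lower. An unadjusted p under 0.05 was reached by 4 of the 25, a share near the 13.7% of all tested genes. SERPINH1, the chaperone that binds the collagen triple helix, was at 319.8 ± 11.6 CPM at 37C and rose to 367.2 ± 9.77 CPM, a rise of 0.20 ± 0.04 in log2 units (adjusted p = 0.0382, edgeR). The lysyl hydroxylases PLOD1 and PLOD3 and the collagen galactosyltransferase COLGALT1 did not pass, at 0.22 ± 0.06, 0.14 ± 0.06 and 0.13 ± 0.04 on the log2 scale (edgeR adjusted p = 0.114, 0.296 and 0.175). On leaving out 37C replicate 1, 37C replicate 2 or any 1 of the 41C libraries, 0 genes of this list passed, and on leaving out 37C replicate 3, 3 were higher and 1 lower. That last fit called 805 genes over the whole table, against 131 in the main fit, and the fits with 0 called 5 to 223.

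Of 7 tested collagen receptors, 0 passed by edgeR, DESeq2 or limma-voom, and 2 had an unadjusted p under 0.05, where 13.7% of all tested genes did. These were the endocytic collagen receptor MRC2 (log2 change 0.29 ± 0.10, edgeR adjusted p = 0.215) and ITGA2, a subunit of the collagen-binding integrin of keratinocytes (0.14 ± 0.05, edgeR adjusted p = 0.260). Without 37C replicate 3, 1 receptor was lower, in a fit that called 805 genes over the whole table against 131 in the main fit. With a block by replicate number, and with a correction for GC content, 1 receptor was higher in each. Those fits called 438 and 426 genes over the whole table. ITGA10 and ITGA1 had log2 changes of 0.55 ± 0.43 and -0.12 ± 0.10. Of 11 tested proteases that cleave collagens, 1 rose and 0 fell (median log2 change -0.02). Over all tested genes 0.821% were called higher and 0.265% lower. An unadjusted p under 0.05 by edgeR was reached by 4 of the 11, beside 13.7% of all tested genes. MMP2, a gelatinase that also degrades type IV collagen, was at 97.9 ± 1.97 CPM at 37C and rose to 122.0 ± 4.39 CPM, a log2 change of 0.32 ± 0.05 (edgeR adjusted p = 0.00490). MMP14, MMP13 and MMP1 did not pass (0.13 ± 0.05, -0.31 ± 0.12 and -0.35 ± 0.15, edgeR adjusted p = 0.191, 0.229 and 0.324). On leaving out replicate 2 of either temperature 0 proteases passed, and on leaving out 37C replicate 3, 2 did.

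The libraries carried the markers of keratinocytes and little of other cell types. All 8 keratinocyte markers were tested, and their summed level was 6524 to 7176 CPM at 37C and 7605 to 7871 CPM at 41C. It was thus higher at 41C without overlap, as the 5 collagens were, and its part in their rise was not tested. KRT5 and KRT14 gave the most CPM of the 8. By edgeR 2 of the 8 (DSP and KRT14) passed as higher, beside 0.821% of all tested genes. In 5 of the 8 all 41C libraries lay above all 37C libraries, beside 11.2% of all tested genes. The groups overlapped for TP63, SFN and PERP (log2 changes 0.04, 0.08 and -0.01). Fibroblast markers, of interest for COL1A1 and COL3A1, had 7 rows of 8 and a sum of 32.8 to 38.8 CPM at 37C and 33.9 to 36.2 CPM at 41C, so the groups overlapped. Most of that sum was FBLN1 and TWIST2, while LUM, PDGFRA, PDGFRB and THY1 had from 0 to 2 counts in each library. Melanocyte markers (4 rows of 8) summed to 4.91 to 5.06 and 5.09 to 6.21 CPM, and endothelial markers (5 rows of 6) to 20.7 to 30.4 and 18.8 to 22.8 CPM.

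Longer genes had slightly higher changes across the table, and all 7 collagens are long. Tested genes were divided into 5 bins of equal size by length. In the bin of the longest genes (7077 to 44221 bases), which holds COL4A1 and COL7A1, the median log2 change was 0.05, and 2.03% were called higher. In the next bin (4795 to 7076 bases), which holds COL4A2, COL18A1, COL17A1, COL1A1 and COL3A1, the median was 0.02 and 0.995% were called higher. In the bin of the shortest genes the median was -0.05. With each library corrected for its trend on length, COL4A1 had a log2 change of 0.23 and did not pass (edgeR adjusted p = 0.0618). Its bin and this correction rest on the deposited length of 15595 bases; its longest GENCODE transcript, of 6616 bases, would place it in the next bin, and the correction at that length was not run. COL4A2 (0.25), COL18A1 (0.47), COL7A1 (0.30) and COL17A1 (0.25) still passed (edgeR adjusted p = 0.00907, 0.0198, 0.0181 and 0.00638). By GC content, the 7 genes lay in the upper 2 of 5 bins, where the medians were 0.02 and 0.00. With a correction for GC content the same 5 passed, in a fit that called 426 genes over the whole table against 131 in the main fit.

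**Figure D4:**
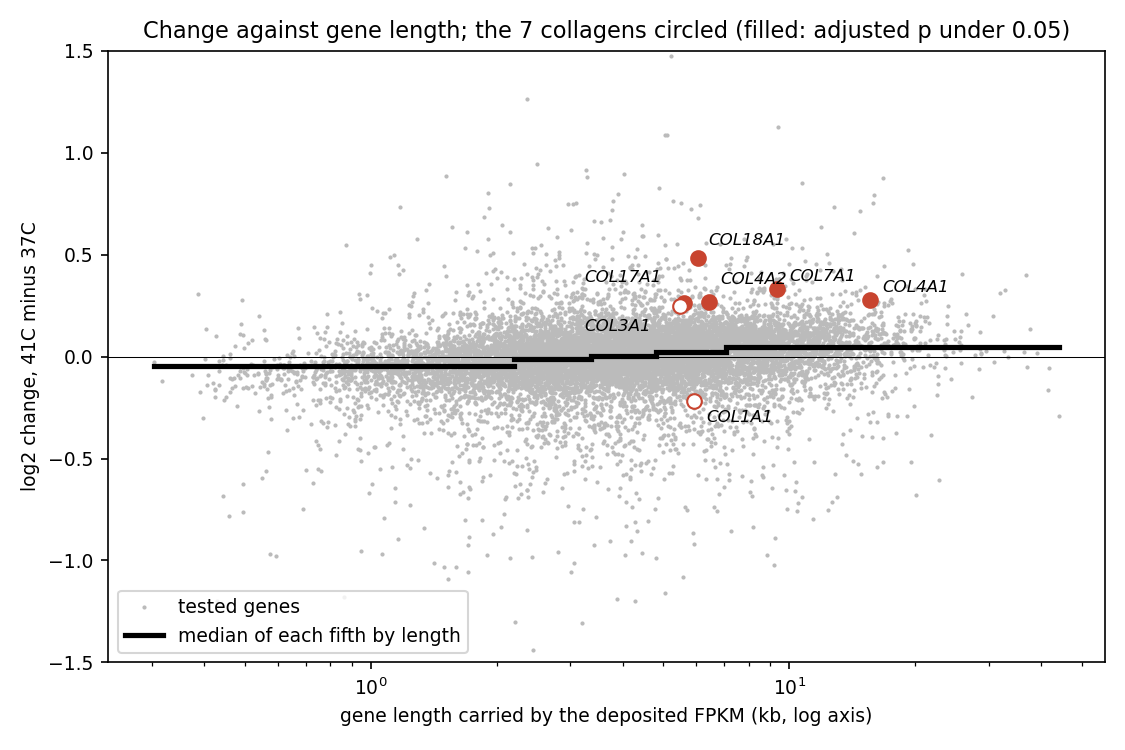
Log2 change from 37C to 41C (linear axis) against gene length in kilobases (log axis) for tested genes, with black lines for the median of each of 5 bins by length and the 7 collagens as red circles, filled where edgeR's adjusted p is under 0.05. The medians run from -0.05 to 0.05, and the 5 filled circles lie between 0.26 and 0.48; 12 genes fall outside the axis.

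The calls depended on 4 of the 6 libraries, while the direction of each change did not. On leaving out replicate 2 of either temperature, 0 of the 7 collagens passed (edgeR adjusted p of the 5 from 0.0843 to 0.184 in the 37C case). Leaving out 41C replicate 1 left 3, with COL18A1 and COL7A1 lost, and leaving out 41C replicate 3 left 3, with COL4A1 and COL18A1 lost. The same 5 passed on leaving out 37C replicate 1 or 37C replicate 3. Calls over the whole table moved too, from 131 in the main fit to 223, 17 and 805 without 37C replicates 1, 2 and 3. Without 41C replicates 1, 2 and 3 they were 36, 5 and 41. Over all 17 alternatives the log2 change of COL17A1 ran from 0.24 to 0.29, that of COL4A2 from 0.24 to 0.28, COL4A1 from 0.23 to 0.30, COL7A1 from 0.27 to 0.38 and COL18A1 from 0.36 to 0.58. COL3A1 ran from 0.14 to 0.33 and COL1A1 from -0.24 to -0.07, and neither passed in any of the 16 alternatives that gave them an adjusted p.

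**Figure D5:**
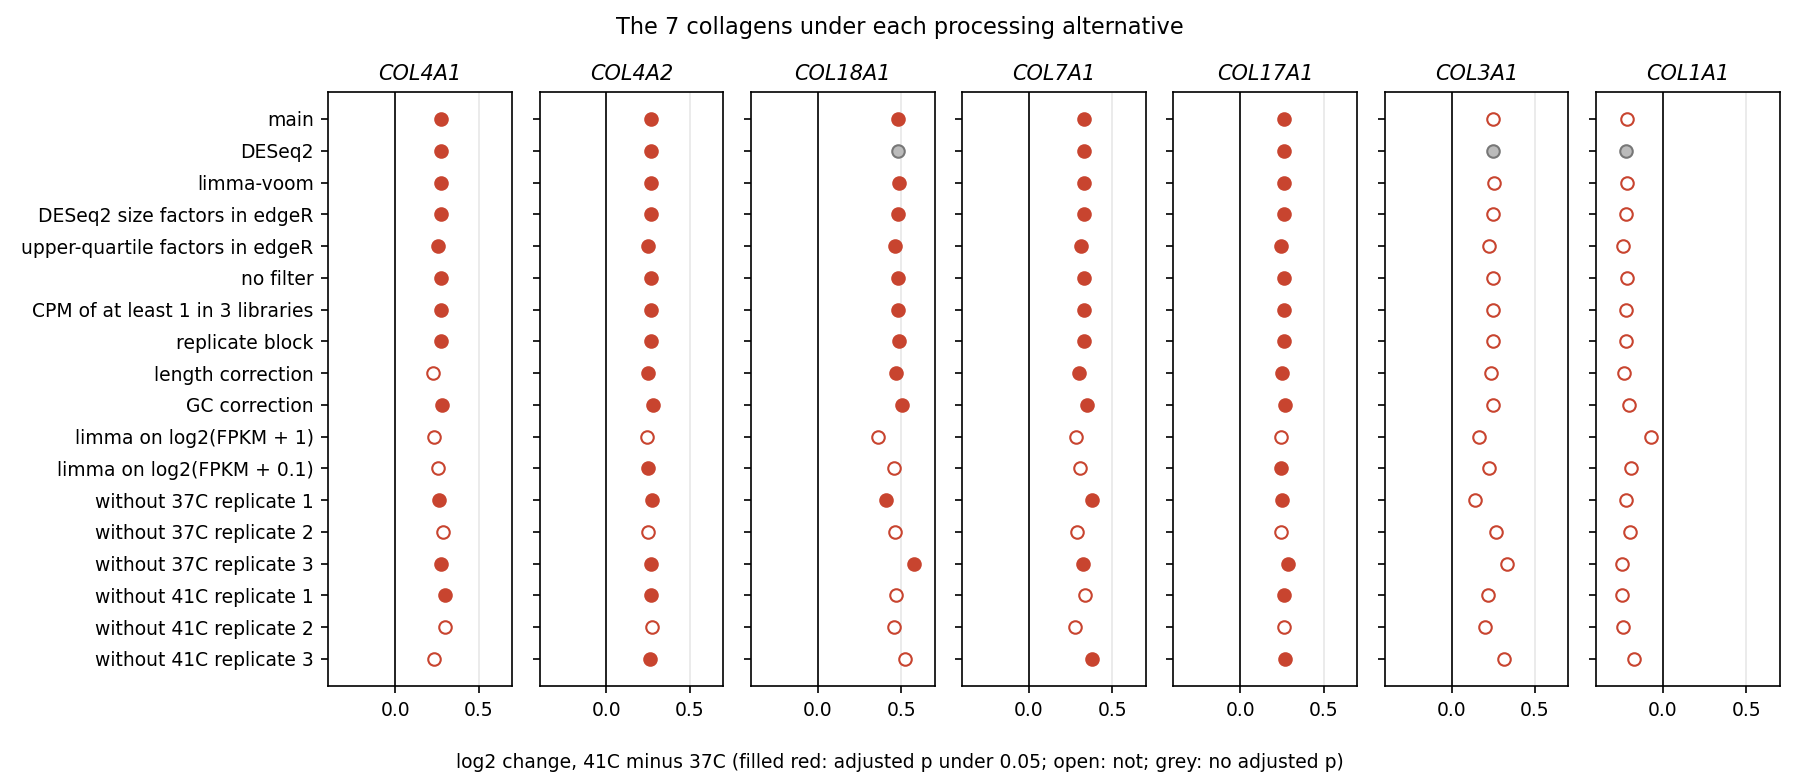
Log2 change from 37C to 41C of the 7 collagens (1 panel each) under the reported settings, in the top line, and 17 alternatives, with filled red points where the adjusted p is under 0.05, open points where it is not, and grey where DESeq2 gave none. Every point of COL4A1, COL4A2, COL18A1, COL7A1, COL17A1 and COL3A1 lies above 0 and every point of COL1A1 below it, and all 5 collagens called higher have open points in the fits that leave out replicate 2 of either temperature.

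Genes with the most similar profile were taken by Pearson's r of log2 CPM over the 6 libraries, among 11004 other genes whose log2 CPM averaged 1 or more. The 6 libraries form 2 groups, so a high r can come from the group difference alone, and 27 to 174 genes reached an r of 0.95 with any one of the collagens. The 3 closest to COL17A1 were MYH9, CD44 and PRPF8 (r = 0.997, 0.996 and 0.995), and for COL4A2 PAQR4, XPO5 and ZNF473 (0.998, 0.997 and 0.995). For COL4A1 they were CUL7, PLXNB2 and PXDN (0.994, 0.993 and 0.992), for COL18A1 NEDD9, ZMYM3 and TEP1 (0.996, 0.992 and 0.991), and for COL7A1 MBLAC2, PTPN3 and TAF3 (0.994, 0.991 and 0.989). COL3A1 lay closest to FN3KRP, ZBTB39 and LYRM4 (0.989, 0.988 and 0.987), and COL1A1 to NNT, SLC27A2 and H2AZ2 (0.989 each). No p is given for these values, which describe the libraries at hand.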

How the data were processed

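HaCaT poly(A) RNA was sequenced in 6 libraries, 3 per temperature, from TruSeq Stranded mRNA kits per the labels' protocols. The submitters' processing notes name Trimmomatic 0.36, HISAT2 and GRCh38.p13; no source used here gives the counter, annotation or strand mode. The authors deposited unnormalized read counts for each gene symbol, with totals of 19659112 to 20856144 per library. The deposited FPKM values equal count over 1 fixed gene length and the library total within 5.35e-05%. They served for lengths, levels per length, shares of the collagen total and alternatives, and not for the main test. All per-sample columns entered.

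The count test was edgeR 4.0.16 (R 4.3.3) with filterByExpr, TMM factors, robust quasi-likelihood fit, two-sided, 41C against 37C, Benjamini-Hochberg adjustment over 12056 genes, threshold 0.05. The common coefficient of variation was 5.83%. CPM values are TMM-scaled; log2 changes are ± SE. Ratios of counts were compared by exact permutation. The edgeR procedure was tested on simulated counts. Their spread was taken from these 6 libraries, so that test cannot tell technical from biological spread. Alternatives used DESeq2 1.42.0, limma 3.58.1 (voom, or log2(FPKM + 1) and log2(FPKM + 0.1)), other scaling factors and filters, a block by replicate number, leaving out single libraries, and spline corrections for length or GC content (from GENCODE release 29, for 98.0% of tested genes); the GC correction was added after the data were seen.

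The 7 collagens and all lists were chosen with earlier results of these data known. Named genes were the 7, other collagen genes past the threshold and the 3 with the highest CPM, up to 4 genes per list with the smallest p (1 of these is not reported here), and the 3 genes most like each collagen; COL4A3, COL4A4, COL4A6, FERMT1, ITGA6, PLEC, SLC19A1 and single markers were named after their values were seen.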

Additional observations from a re-analysis of the deposited data

How the results depend on the processing

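Counts moved with the libraries and the model more than sizes did. The 131 genes past the threshold became 253 with DESeq2, 284 with no filter, 426 with the GC correction, 40 and 11 with limma on log2(FPKM + 0.1) and log2(FPKM + 1), and 5 to 805 with 1 library left out. The 5 collagens that rose became 2 and 0 with limma on log2(FPKM + 0.1) and log2(FPKM + 1), and 0 to 5 with 1 library left out; with DESeq2, COL18A1 had no adjusted p, COL17A1, COL4A1, COL4A2 and COL7A1 passed, and in none of the 17 alternatives was any of the 7 called lower. The 1 other collagen gene past the threshold became 0 with upper-quartile factors, with the length correction and with both FPKM fits, and 0 to 1 with 1 library left out. The 9 genes past the threshold over the 4 lists became 15 with the GC correction, 3 and 0 with log2(FPKM + 0.1) and log2(FPKM + 1), and 0 to 16 with 1 library left out. The cause of these shifts was not tested.

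The log2 difference in the COL4A2 to COL4A1 ratio, -0.01, turned to 0.00804 without 37C replicate 1 and 0.0238 without 41C replicate 3, within a range of -0.0328 to 0.0238 over the libraries left out. The difference in the COL7A1 to COL17A1 ratio stayed at 0.01 to 0.12 and that in the COL3A1 to COL1A1 ratio at 0.36 to 0.58.

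Same-numbered libraries of the 2 temperatures correlated in their deviations from the group means at 0.0820, -0.0194 and 0.0774. Libraries with different numbers correlated at -0.140 to 0.0663. These values do not settle whether the numbers pair the libraries, and the main test used no block by replicate number. With the replicate block the count over all genes was 438, that over the 4 lists 16, and the collagens called higher were 5 of 7. The median log2 change of all genes lay between -0.02 and 0.01 over all 17 alternatives. COL1A1 and COL3A1, at 43 to 306 counts per library, are the least counted of the 7 collagens.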
